A study of Arabidopsis thaliana with 104 samples.

Results

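The phr1 phl1 double mutant of Arabidopsis thaliana was compared with Col-0, the wild-type accession it is set against, in whole seedlings kept at low inorganic phosphate (Pi) together with a synthetic bacterial community (SynCom). The comparison used 12 RNA-seq libraries, and the series holds 92 more. These were the 6 phr1 phl1 libraries of that condition and the 6 Col-0 libraries from the same 3 experiments, C, D and E, with 2 libraries per genotype and experiment. The labels call the experiments independent but do not say what the 2 libraries of an experiment share, so p-values measure the spread between these libraries. In every group seed germinated on medium with 1 mM Pi and 0.5% sucrose, and after 7 days seedlings moved to sucrose-free plates for 12 days. Low Pi was 50 µM and high Pi 625 µM, and the SynCom was added at transfer. Groups used for further comparisons were phr1 at low Pi with SynCom, and Col-0 and phr1 phl1 at high Pi with SynCom or at low Pi without bacteria. The labels name the mutated genes but no alleles, and the cell types of the seedlings are not separated. In such whole-seedling RNA, fewer cells of a type and less RNA per cell cannot be told apart.

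PHR1 and its close relative PHL1 are MYB-type transcription factors that switch on genes for Pi uptake, Pi recovery and Pi saving when plants run short of Pi. SPX proteins sense the plant's Pi status and hold PHR1 back when Pi is ample. One arm of the response runs through the microRNA miR399, which lowers the mRNA of PHO2, an enzyme that marks Pi transporters for degradation, while the non-coding RNAs IPS1 and AT4 bind miR399 without being cut and so shield PHO2. PHR1 is also known for links between Pi status and plant immunity in the presence of root bacteria.

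The base pairing behind that arm is shown because PHO2 rose and its decoys IPS1 and AT4 fell in the mutant. In RefSeq's TAIR10.1 annotation, miR399a, miR399b, miR399d and miR399f share the seed in capitals (bases 2 to 8).
miR399a: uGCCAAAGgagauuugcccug
miR399b: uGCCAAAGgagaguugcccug
miR399d: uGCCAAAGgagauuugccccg
miR399f: uGCCAAAGgagauuugcccgg
The PHO2 transcript holds 5 matching stretches on the minus strand of chromosome 2, and 2 of them follow, with the bases that pair with the seed in capitals. The first lies at chr2:14282106-14282126 and pairs with miR399a with 0 mismatches and 2 G-U pairs. The second lies at chr2:14281884-14281904 and pairs with miR399f with 0 mismatches and 2 G-U pairs.
PHO2 site 1: uagggcaaaucuuCUUUGGCa
PHO2 site 2: uugggcaaaucucCUUUGGCa
The decoys hold the same seed match, but 3 unpaired bases sit opposite the gap after base 10 of the microRNA. The IPS1 site is at chr3:3051224-3051247 and the AT4 site at chr5:895149-895172, both on the plus strand.
IPS1 site: uugggcaacuucuaucCUUUGGCa
AT4 site: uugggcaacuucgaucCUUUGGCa

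The element that PHR1 is known to bind, GNATATNC, reads the same on both strands, and it is printed in capitals in 3 promoters of genes that fell. Each is the 250 bases before the annotated start in TAIR10.1. The SPX3 promoter, chr2:18606160-18606409 on the plus strand, held it at 213 and 90 bases before the start. The PHT1;2 promoter, chr5:17415448-17415697 on the plus strand, held it at 42 bases and the AT4 promoter, chr5:894332-894581 on the plus strand, at 26 bases.
SPX3 promoter: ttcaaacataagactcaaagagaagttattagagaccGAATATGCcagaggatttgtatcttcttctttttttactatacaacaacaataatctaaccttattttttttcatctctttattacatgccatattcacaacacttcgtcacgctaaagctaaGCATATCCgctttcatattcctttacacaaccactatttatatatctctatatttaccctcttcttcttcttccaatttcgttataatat
PHT1;2 promoter: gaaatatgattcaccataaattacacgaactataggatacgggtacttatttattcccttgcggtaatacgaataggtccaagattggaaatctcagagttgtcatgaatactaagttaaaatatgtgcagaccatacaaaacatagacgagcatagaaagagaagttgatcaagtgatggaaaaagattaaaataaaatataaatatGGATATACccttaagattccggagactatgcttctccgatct
AT4 promoter: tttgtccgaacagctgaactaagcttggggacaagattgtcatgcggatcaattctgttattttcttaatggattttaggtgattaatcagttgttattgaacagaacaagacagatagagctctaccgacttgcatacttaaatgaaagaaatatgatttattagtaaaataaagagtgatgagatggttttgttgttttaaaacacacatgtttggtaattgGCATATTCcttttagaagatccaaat

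Total counts ran from 1615792 to 6707920 in the Col-0 libraries and from 2337430 to 3228314 in the phr1 phl1 libraries. Experiment was tied to 71.0% of the first principal component, which held 45.2% of the variance, and genotype to 55.7% of the second, which held 24.7%. One library stood apart: Col-0 replicate 2 of experiment D (D2) had the fewest counts and a residual SD of 0.654, against at most 0.425 in the others.

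In this condition 562 genes were lower and 433 higher in phr1 phl1 than in Col-0 at an adjusted p under 0.05 in edgeR's quasi-likelihood test with experiment as a block. These were 3.45% and 2.66% of the 16290 genes tested. Upper-quartile scaling called 290 higher and 606 lower genes. More than 2-fold differences were found for 356 of the lower and 180 of the higher genes. The median log2 fold change over all tested genes was -0.01. Col-0 lay above phr1 phl1 in every library for 205 genes (1.26%) and phr1 phl1 above Col-0 for 137 genes (0.841%). Experiment C alone gave 659 calls, D 123 and E 2. The sign of the pooled calls was the same in 100% of them in C and in D and in 98.3% in E. These calls were made on the same libraries, so agreement of sign is in part fixed by the selection. The count of 995 moved with single libraries: it was 187 without Col-0 C2, 202 without Col-0 D1, 534 without Col-0 C1, 188, 153, 203 and 219 without phr1 phl1 C1, C2, D1 or D2, 2001 without phr1 phl1 E2 and 1007 without Col-0 D2. It was 16 without experiment C, 34 without D and 2842 without E.

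The targeted genes went in opposite directions. Levels are given in CPM, counts scaled to a common library size, and are not divided by gene length. PHR1 mRNA was 56.4, 64.1 and 75.0 CPM (lowest, median and highest of 6 libraries) in Col-0 and 29.0, 33.8 and 39.7 CPM in phr1 phl1, without overlap. It fell by 0.96 ± 0.10 (log2 fold change ± SE, adjusted p = 0.000749). PHL1 mRNA was 10.7, 17.0 and 24.4 CPM in Col-0 and 46.6, 116 and 184 CPM in phr1 phl1, again without overlap, and rose by 2.70 ± 0.19 (adjusted p = 1.28e-05). Reads outside a disrupted part of a gene do not show whether a working protein is made. PHR1 also overlaps AT4G28600, and counts without strand information cannot separate these loci.

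Many genes of the Pi starvation response were lower in the double mutant. Of 74 genes in 5 lists (signalling, transport, phosphatases, lipid remodelling and Pi-sparing metabolism), 56 passed the filter on low counts. Of these 24 fell, 1 rose and 31 did not pass the test, with a median log2 fold change of -0.95. Over all genes tested 3.45% fell. Col-0 lay above phr1 phl1 in every library for 9 of the 56 and phr1 phl1 above Col-0 for 1, beside 1.26% and 0.841% of all genes. Some of the 9 passed the filter only through Col-0, so for them a gap between the groups is largely set by the filter. SPX3 was at least 6.93 CPM in Col-0 and at most 1.91 CPM in the mutant. For PHT1;9 these values were 4.01 and 2.01 CPM. Of the 24, 23 kept their sign within each of the 3 experiments, and the exception was MGD3. The 24 were called on these same libraries, so a shared sign is in part built in. A further 9 of the 18 filtered members were lower when no filter was applied.

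In the signalling list, 5 of 13 tested members fell and PHO2 rose. PHO2, the ubiquitin-conjugating enzyme targeted by miR399, was 113, 135 and 167 CPM in Col-0 and 610, 665 and 1046 CPM in phr1 phl1. The lowest mutant library was far above the highest Col-0 library, and the log2 fold change was 2.41 ± 0.18 (adjusted p = 2.02e-05). Fitted within a single experiment it was 2.39 in C, 2.46 in D and 2.39 in E. No count of a miR399 precursor was used, so miR399 itself was not measured.

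SPX3, an SPX-domain gene known as a marker of Pi starvation, was 6.93, 56.4 and 185 CPM in Col-0 and 0, 0.449 and 1.91 CPM in phr1 phl1. The groups did not overlap, 1 mutant library held no count, and the gene fell by 6.16 ± 0.67 (adjusted p = 0.000749). SPX1, which encodes an inhibitor of PHR1, was 127, 583 and 1193 CPM in Col-0 and 24.9, 131 and 156 CPM in phr1 phl1. Its groups overlapped because Col-0 E2 lay among the mutant libraries, and it fell by 2.17 ± 0.36 (adjusted p = 0.00949). SPX2 and SPX4 did not pass, with log2 fold changes of -0.81 and 0.36 (adjusted p = 0.0613 and 0.26).

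The decoy IPS1 was 23.6, 569 and 1515 CPM in Col-0 and 7.23, 25.1 and 63.7 CPM in phr1 phl1. The 2 Col-0 libraries of experiment E, at 23.6 and 30.2 CPM, lay within the range of the mutant, and the other 4 Col-0 libraries were above it. IPS1 fell by 3.90 ± 0.51 (adjusted p = 0.0031). AT4 was 434, 2699 and 5672 CPM in Col-0 and 28.5, 355 and 522 CPM in phr1 phl1, with the same 2 Col-0 libraries overlapping the mutant. It fell by 2.84 ± 0.43 (adjusted p = 0.00655). PHF1, which lets Pi transporters leave the endoplasmic reticulum, fell by 1.44 ± 0.28 (adjusted p = 0.0198). WRKY75, WRKY6 and WRKY45, regulators of Pi genes, had log2 fold changes of 0.78, 0.67 and 0.06 and did not pass (adjusted p = 0.136, 0.0751 and 0.905).

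**Figure D1:**
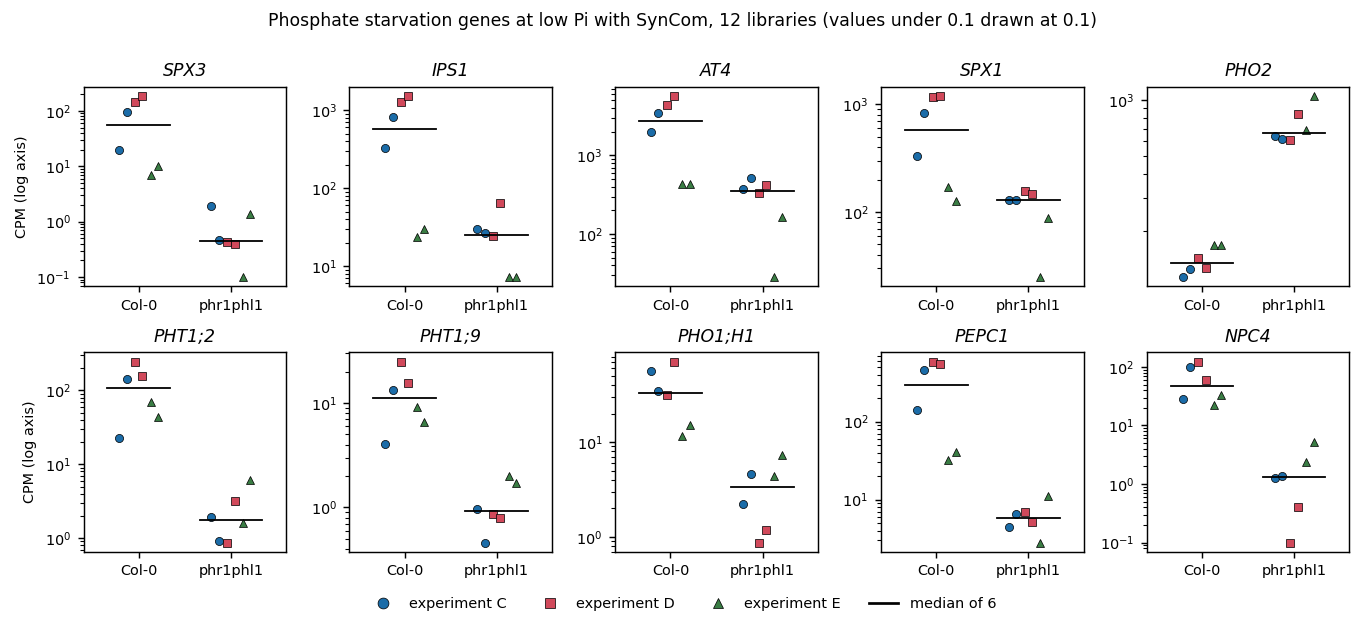
Level of 10 Pi starvation genes in CPM (log axis) in the 6 Col-0 and 6 phr1 phl1 libraries at low Pi with SynCom. Points are libraries coloured by experiment and bars are medians. PHO2 is above Col-0 in all 6 mutant libraries, while the other 9 genes have lower medians in the mutant and the Col-0 libraries of experiment E are the lowest for SPX3, IPS1, AT4, SPX1, PHO1;H1 and PEPC1.

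In the transport list, 5 of 10 tested members fell and 0 rose, with a median of -1.41. The high-affinity root uptake transporter gene PHT1;2 was 22.5, 107 and 246 CPM in Col-0 and 0.872, 1.76 and 6.21 CPM in phr1 phl1. The groups did not overlap and it fell by 5.27 ± 0.59 (adjusted p = 0.00089). PHT1;3, a neighbour in the same transporter cluster, was 7.49, 30.4 and 74.3 CPM against 0, 0.218 and 4.83 CPM, with 3 mutant libraries at 0, and fell by 5.12 ± 0.56 (adjusted p = 0.000749), a fold that is least certain at such low counts. PHT1;2 and PHT1;3 are close relatives, so reads shared between family members make the split of counts uncertain.

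PHT1;9, a transporter of the same family, was 4.01, 11.2 and 25.0 CPM in Col-0 and 0.461, 0.915 and 2.01 CPM in phr1 phl1 and fell by 3.24 ± 0.45 (adjusted p = 0.00402). PHO1;H1, which helps load Pi into the xylem, was 11.6, 33.1 and 70.9 CPM against 0.872, 3.33 and 7.25 CPM. Neither gene overlapped between the groups, and PHO1;H1 fell by 3.19 ± 0.54 (adjusted p = 0.0102). PHT1;4 fell by 1.53 ± 0.36 (adjusted p = 0.0337). PHT1;1, the main uptake transporter gene, was 53.2, 213 and 348 CPM in Col-0 and 63.9, 90.9 and 149 CPM in the mutant. Its groups overlapped through Col-0 C1, and its log2 fold change of -1.09 ± 0.35 did not pass (adjusted p = 0.0753). PHO1, the main xylem-loading exporter, did not pass either (log2 fold change -0.48, adjusted p = 0.107).

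Phosphatases and other Pi-recycling enzymes gave 6 lower and 0 higher of 11 tested, with a median of -1.20. PEPC1, a phosphatase of phosphoethanolamine and phosphocholine, was 32.2, 300 and 592 CPM in Col-0 and 2.81, 5.82 and 11.0 CPM in phr1 phl1, without overlap. It fell by 4.98 ± 0.68 (adjusted p = 0.00382). The pyrophosphatase gene PPsPase1 was 35.1, 329 and 821 CPM against 9.24, 27.0 and 36.2 CPM and fell by 3.23 ± 0.65 (adjusted p = 0.0207). Its groups touched, since Col-0 E1 was just below the highest mutant library. The purple acid phosphatase genes PAP7, PAP10, PAP8 and PAP12 fell by 2.25, 1.24, 1.22 and 1.05 (adjusted p = 0.0301, 0.0152, 0.0498 and 0.037), while PAP26 and PAP17 had log2 fold changes of -0.13 and -0.94 and did not pass (adjusted p = 0.571 and 0.135).

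Of 8 phosphatase members removed by the filter, 6 were lower in a fit without a filter. PAP5 and PAP23 reached 14.8 and 18.8 CPM in Col-0 and held 0 counts in the mutant. PAP22 ran from 3.48 to 22.4 CPM in Col-0 and from 0 to 3.62 CPM in the mutant. PAP20 and BFN1 were not called there, with log2 fold changes of 1.73 and 0.29 (adjusted p = 0.423 and 0.733). The filter kept a gene only where enough libraries held it, so these members do not enter the list's median. Among other filtered members, the transporter gene PHT1;8 ran from 2.14 to 16.5 CPM in Col-0 and from 0 to 0.796 CPM in the mutant. The glycerophosphodiesterase gene GDPD3 ran from 1.49 to 36.5 CPM and from 0 to 1.04 CPM.

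Membrane lipid remodelling, in which phospholipids are replaced by galactolipids and sulpholipids, gave 5 lower and 0 higher of 15 tested, with a median of -0.31. NPC4, a phospholipase C that releases diacylglycerol, was 22.1, 46.6 and 124 CPM in Col-0 and 0, 1.33 and 5.18 CPM in phr1 phl1, without overlap. It fell by 4.85 ± 0.63 (adjusted p = 0.00309). The galactolipid synthase gene MGD3 was 17.5, 133 and 274 CPM against 8.76, 10.8 and 31.4 CPM and fell by 2.80 ± 0.70 (adjusted p = 0.0393). The groups overlapped, and in experiment E alone its log2 fold change was 0.03 (adjusted p = 0.997). SQD2, GDPD5 and PAH1, which act in sulpholipid synthesis, glycerophosphodiester breakdown and phosphatidic acid breakdown, fell by 1.37, 1.18 and 0.97 (adjusted p = 0.0404, 0.0347 and 0.0204). SQD1 and MGD2 had log2 fold changes of 0.09 and -0.24 and did not pass (adjusted p = 0.79 and 0.593).

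Of 7 genes of Pi-sparing metabolism, which bypasses Pi-using steps of glycolysis and respiration, 3 fell and 0 rose, with a median of -0.82. PPC3 and PPC1, forms of phosphoenolpyruvate carboxylase, fell by 1.64 ± 0.24 and 0.82 ± 0.22 (adjusted p = 0.00494 and 0.0463). PPCK2, a kinase of that enzyme, was 3.47, 23.9 and 58.7 CPM in Col-0 and 2.41, 3.48 and 7.57 CPM in the mutant, with overlap, and fell by 2.4 ± 0.46 (adjusted p = 0.0167). The alternative oxidase gene AOX1A did not pass (log2 fold change 0.18, adjusted p = 0.513).

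Of the 24 Pi genes that fell, 12 were called in each of the 12 fits that left out 1 library: SPX3, IPS1, AT4, SPX1, PHT1;2, PHT1;3, PHT1;9, PHO1;H1, PEPC1, PAP10, NPC4 and PPC3. The other 12 lost their call in at least 1 such fit. The number that fell was 13 without Col-0 C2 and 15 without Col-0 D1, and 15, 16, 16 and 16 without phr1 phl1 C1, C2, D1 or D2. It was 22 without Col-0 D2 and 32 without phr1 phl1 E2. It was 4 without experiment C, 5 without D and 36 without E.

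Medians of the Pi lists were closer to 0 in experiment E than in C or D. Over all 56 tested Pi genes they were -0.99 in C, -1.24 in D and -0.26 in E. Medians over the tested Pi transport genes were -1.78 in C, -2.29 in D and -0.68 in E, and over the lipid genes -0.52, -0.81 and 0.03. In E the Col-0 libraries held less IPS1, SPX3, AT4, SPX1 and PEPC1 than any Col-0 library of C or D. A test of genotype by experiment gave no call among the Pi genes. It called 5 genes (0.0307% of those tested), AIR1, AT4G12545, AT4G32870, AT4G39675 and PCK2, with 2418 at an unadjusted p under 0.05. In that test DESeq2 called 242 genes and edgeR called 0 without Col-0 D2, with 2216 at an unadjusted p under 0.05.

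**Figure D2:**
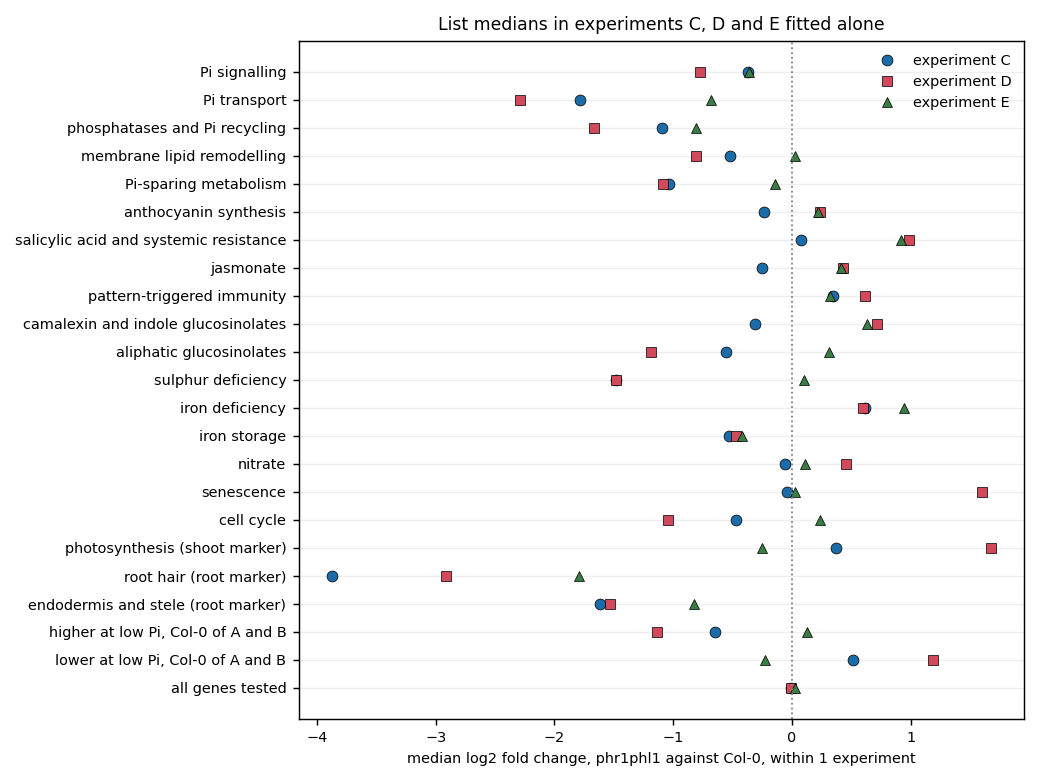
Median log2 fold change of each gene list, phr1 phl1 against Col-0 at low Pi with SynCom, in experiments C, D and E fitted alone (2 libraries per genotype in each). Pi transport is negative in all 3, at -1.78, -2.29 and -0.68, while photosynthesis genes, none of them called in the pooled fit, are at 0.37, 1.68 (with Col-0 D2 far below D1) and -0.25.

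Root marker genes were among those lower in the mutant, while no shoot marker gene passed the test. The share of all tested genes that were lower was 3.45%. Root hair genes gave 4 lower of 4 tested of 16 listed, and their summed level over all 16 ran from 29.2 to 649 CPM in Col-0 and from 6.70 to 192 CPM in phr1 phl1. Between 0 and 5 of the 16 were at 0 counts in a Col-0 library and between 0 and 9 in a mutant library. Summed over the 4 tested genes, the lowest library was 15.5 CPM in Col-0 and 1.84 CPM in the mutant. They could pass the filter on low counts mainly through Col-0, so 4 lower of 4 is in part set by that filter. With no filter 9 of the 16 were lower and 0 higher. Endodermis and stele genes gave 5 lower and 0 higher of 10 tested of 15 listed, with summed levels of 169 to 359 CPM in Col-0 and 92.4 to 218 CPM in phr1 phl1. The endodermis and stele count was 2 without Col-0 C2 or phr1 phl1 C1 or C2, 3 without Col-0 D1, and 0 without experiment C or D. The root hair count was 2 of 8 tested without phr1 phl1 C2, and 1 and 2 of 13 tested without experiments C and D.

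Among the root markers, COW1, a lipid transfer protein of root hair tips, fell by 2.5 ± 0.36 (adjusted p = 0.00453), and FAR5 and CASP1, genes of suberin and of the Casparian strip, fell by 1.94 and 1.4 (adjusted p = 0.0152 and 0.0167). The other endodermal genes that fell were CASP2, PER64 and CYP86A1, the last named after its values were seen (adjusted p = 0.0236, 0.0167 and 0.0495). The endodermal regulators SCR and SHR had log2 fold changes of 0.07 and -0.24 and did not pass (adjusted p = 0.79 and 0.494). In the shoot list, 0 of 24 photosynthesis genes passed, all 24 had positive log2 fold changes, and the median was 0.62. Their summed level ran from 5242 to 119658 CPM in Col-0 and from 85262 to 106528 CPM in phr1 phl1. The lowest value was Col-0 D2, without which the median was 0.27. The other Col-0 library of experiment D was at 49772 CPM, so the median of 1.68 in D alone rests in part on D2. Uptake transporters and root markers are both read from roots, and the part of the root and shoot share in the lower Pi genes was not tested.

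An independent set of libraries gave a wider list of Pi-responsive genes. In Col-0 with SynCom of experiments A and B, which hold no phr1 phl1 libraries, 1841 genes were more than 2-fold higher and 694 more than 2-fold lower at low than at high Pi (adjusted p under 0.05). Of the first set 1374 were tested in C to E, and 244 of them were lower and 37 higher in phr1 phl1, with a median log2 fold change of -0.55. Over all genes tested 3.45% were lower and 2.66% higher, so the share of higher genes in the first set was near that of all genes. Of the second set 624 were tested, and 2 were lower and 33 higher, with a median of 0.46. The medians of the first set were -0.65, -1.14 and 0.13 in C, D and E alone, and those of the second 0.52, 1.19 and -0.23. Both sets had the opposite median sign in E. The direction was taken from different plants, but the same root and shoot genes can move in both.

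**Figure D3:**
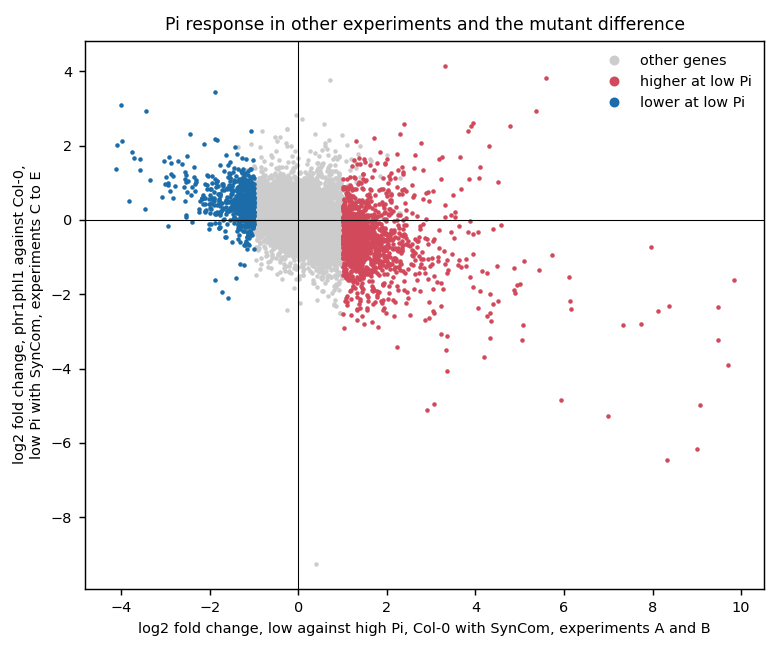
Each point is a gene. The horizontal axis is its log2 fold change at low against high Pi in Col-0 with SynCom of experiments A and B, and the vertical axis is its log2 fold change in phr1 phl1 against Col-0 at low Pi with SynCom of experiments C to E. Genes over 2-fold higher at low Pi (red) have a median of -0.55 on the vertical axis and genes over 2-fold lower (blue) a median of 0.46.

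The PHR1 element was found more often before genes that fell than before all genes, as a description of these sequences. It was present in 8.72% of 562 promoters of genes that fell, in 5.34% of 431 promoters of genes that rose and in 5.52% of the 16281 promoters of tested genes. Over all 37898 promoters in the reference the share was 5.28%. Of the 24 Pi genes that fell, 9 held it (37.5%), and of the 32 other tested Pi genes, 7 held it (21.9%). IPS1, PEPC1, PHT1;3, PHT1;9, SPX1 and PHO1;H1 fell but held no such letters in their 250 bases.

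Outside the Pi lists, iron deficiency genes were among those higher in the mutant. Of 11 tested of 20 listed, 4 rose and 0 fell, with a median of 0.93, beside 2.66% higher and 3.45% lower over all genes. FRO2, the root ferric reductase gene, was 0.802, 1.89 and 35.1 CPM in Col-0 and 2.18, 12.3 and 207 CPM in phr1 phl1. The groups overlapped since both were highest in experiment E, and within the blocks FRO2 rose by 2.44 ± 0.32 (adjusted p = 0.00311). IRT1, the root iron uptake transporter gene, was 0.535, 1.21 and 17.2 CPM against 0.872, 12.9 and 155 CPM and rose by 2.82 ± 0.52 (adjusted p = 0.0152). BTS and OPT3, a regulator of iron sensing and a phloem iron transporter, rose by 0.97 and 1.13 (adjusted p = 0.0172 and 0.0292). Levels of IRT1 and FRO2 differed widely between experiments. Both genes were near the floor in experiment D, where neither was tested alone, and IRT1 was not tested in C alone either. In D, IRT1 was 1.69 and 0.554 CPM in Col-0 and 0.872 and 12.3 CPM in the mutant (D1 and D2). FRO2 was 2.12 and 1.66 CPM there in Col-0 and 2.18 and 7.96 CPM in the mutant. IRT1 and FRO2 kept their call in all 12 fits that left out 1 library. BTS lost it without Col-0 D1, and OPT3 without Col-0 C2 or D1 or phr1 phl1 C1, C2, D1 or D2. The count of 4 was 2 without Col-0 D1 and 6 without phr1 phl1 E1, and 0, 2 and 2 without experiments C, D and E. Of the iron storage genes, 1 of 3 tested fell, the vacuolar iron transporter gene VTL1, by 1.26 ± 0.28 (adjusted p = 0.027, and called in 6 of the 12 fits that left out 1 library).

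Salicylic acid and systemic resistance genes gave 5 higher and 0 lower of 23 tested, with a median of 0.89. Among all genes tested 2.66% were higher and 3.45% lower. PR1, a marker of salicylic acid signalling, was 2.39, 25.3 and 62.2 CPM in Col-0 and 60.0, 105 and 2181 CPM in phr1 phl1. The highest Col-0 library only just exceeded the lowest mutant library, and the mutant's top value came from D2 alone. PR1 rose by 3.82 ± 0.92 (adjusted p = 0.0351). The regulators CBP60G, WRKY53 and PAD4 and the salicylic acid hydroxylase gene DMR6 rose by 1.23, 1.09, 1.32 and 1.15 (adjusted p = 0.0214, 0.0337, 0.0489 and 0.0433), with PAD4 named after its values were seen. ICS1, the main enzyme of salicylic acid synthesis, had a log2 fold change of 0.07 and did not pass (adjusted p = 0.933). The median was 0.07 in experiment C, 0.98 in D and 0.92 in E. The count of 5 was 0 without Col-0 D1 or phr1 phl1 C2 and 1 without Col-0 C1, C2 or E2 or phr1 phl1 D2. It was 2 without Col-0 D2 or phr1 phl1 C1, D1 or E1, 10 without phr1 phl1 E2, and 0 without experiment C or D. PR1 lost its call without Col-0 C1, D1, D2, E1 or E2 or phr1 phl1 C2 or D2. CBP60G, WRKY53 and DMR6 were called in 9, 3 and 2 of the 12 fits that left out 1 library.

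Pattern-triggered immunity genes gave 2 higher and 0 lower of 15 tested, next to 2.66% and 3.45% of all genes. The 2 were the kinase gene BIK1 and the transcription factor gene WRKY22, which rose by 0.80 and 1.13 (adjusted p = 0.0256 and 0.0495). WRKY22 kept its call in only 2 of 12 fits without 1 library and BIK1 in 5 of 12, and neither was lost without Col-0 D2. The count of 2 was 0 without any one of the other libraries of C or D, and 5 without phr1 phl1 E2. The receptor genes FLS2 and EFR had log2 fold changes of -0.35 and 1.1 and did not pass (adjusted p = 0.431 and 0.0604). Jasmonate genes gave 0 calls of 27 and aliphatic glucosinolate genes 0 of 18, with medians of 0.18 and -0.41.

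**Figure D4:**
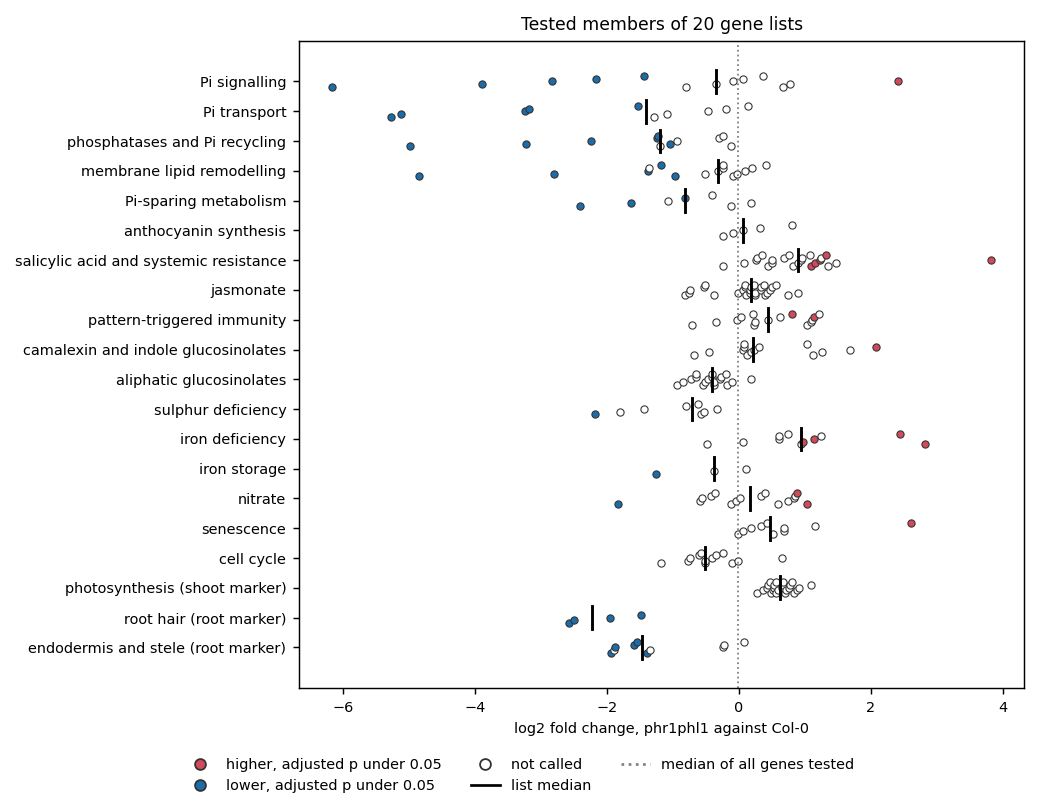
Log2 fold change of each tested member of 20 gene lists, phr1 phl1 against Col-0 at low Pi with SynCom. Filled points passed an adjusted p of 0.05, black bars are list medians and the dotted line is the median of all tested genes at -0.01. The 5 Pi lists hold 24 lower and 1 higher call, and the iron deficiency list 4 higher and 0 lower.

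The steepest differences lay outside the lists. AT3G01345, annotated as an uncharacterized protein, was 143, 215 and 368 CPM in Col-0 and 0, 0.36 and 0.796 CPM in phr1 phl1. It fell by 9.25 ± 0.33 (adjusted p = 8.49e-09), with 2 mutant libraries at 0. OCT1, an organic cation and carnitine transporter gene, was 36.0, 82.8 and 116 CPM against 0.402, 0.743 and 1.74 CPM and fell by 6.46 ± 0.25 (adjusted p = 1.26e-08). Neither gene overlapped between groups, and their folds within single experiments stayed within -9.01 to -9.48 and -6.05 to -6.86. OCT1 overlaps AT1G73230, which counts without strand information cannot separate.

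Among genes that rose, PCR1, a gene of a cadmium resistance family, was 3.24, 13.1 and 29.4 CPM in Col-0 and 35.2, 209 and 796 CPM in phr1 phl1. It rose by 4.15 ± 0.65 (adjusted p = 0.00766), and DIN2, a glycosyl hydrolase gene known as dark-inducible, rose by 3.76 ± 0.50 (adjusted p = 0.00324). AT4G39675, an uncharacterized protein gene, was 1.34, 9.17 and 20.3 CPM against 40.7, 107 and 125 CPM and rose by 3.09 ± 0.52 (adjusted p = 0.00977). None of these 3 genes overlapped between the groups. AIR1, a gene induced by auxin in roots, rose by 3.45 ± 0.82 (adjusted p = 0.0341). Its fold was 5.70, 4.59 and 0.19 in C, D and E alone, and it lost its call in each fit that left out a library of C or D.

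The double mutant was also set against phr1 in the same condition and experiments. The labels give no alleles, so the part of PHL1 in these differences was not tested. PHL1 mRNA was 2.44 ± 0.18 higher in phr1 phl1 than in phr1 (adjusted p = 1.6e-05). PHR1 mRNA did not pass (log2 fold change -0.39, adjusted p = 0.252). The phr1 phl1 libraries are the same ones as above, so the 2 comparisons are not independent. In edgeR 39 genes were lower (0.242% of 16138 tested) and 13 higher (0.0806%) in the double mutant, and 2397 had an unadjusted p under 0.05. With DESeq2 289 were called, and the fit without experiment D called 8. Of 53 Pi genes tested, 7 were lower and 1 higher, with a median of -0.41 against 0.01 over all genes.

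PHO2 was 1.54 ± 0.15 higher in phr1 phl1 than in phr1 (adjusted p = 0.000206). Its medians were 123, 221 and 605 CPM (Col-0, phr1, phr1 phl1). These levels were scaled together with libraries of the other conditions, and that scale differs a little from the scale above. AT4 was 2.38 ± 0.37 lower (adjusted p = 0.011), with medians of 2488, 1498 and 324 CPM in the same order. The ranges of phr1 and phr1 phl1 overlapped for AT4, at 211 to 2429 CPM and 25.7 to 475 CPM.

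PHT1;2, PEPC1, NPC4, PHO1;H1, MGD3 and PHF1 were also lower in the double mutant than in phr1, by -2.78, -2.49, -2.23, -2.20, -1.67 and -1.02 (adjusted p = 0.0235, 0.0234, 0.0406, 0.00897, 0.0421 and 0.0248). For PEPC1 the medians were 277, 35.7 and 5.35 CPM, from Col-0 through phr1 to the double mutant. IPS1 differed from this order: its medians were 525, 14.6 and 22.8 CPM, and its log2 fold change against phr1 was 0.35 ± 0.31 (adjusted p = 0.629). SPX1 did not pass (log2 fold change -1.28, adjusted p = 0.0955). PPC3 and PAP10 had log2 fold changes of 0.06 and -0.30 against phr1 (adjusted p = 0.935 and 0.644), next to -1.64 and -1.24 against Col-0.

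Whether the mutant's difference depended on Pi was tested by its change from high to low Pi, both with SynCom. In edgeR the difference from Col-0 was lower at low Pi for 6 genes (0.0353% of 16989) and higher for 2 (0.0118%), with 2786 at an unadjusted p under 0.05 and 320 called by DESeq2. IPS1 gave -9.86 (adjusted p = 0.000298): at high Pi its medians were 0, 5.96 and 6.41 CPM (Col-0, phr1, phr1 phl1), so the order of the genotypes turned between the Pi levels. In Col-0 it went from at most 0.712 CPM at high Pi to a median of 525 CPM at low Pi. OCT1, PAH1 and AT4G39675 gave -6.83, -1.36 and 3.67 (adjusted p = 0.00238, 0.0412 and 0.00602). Without Col-0 D2, a fit added after seeing the data, 7 genes were called. Without experiment C or D 0 were called, with 1043 and 1178 at an unadjusted p under 0.05.

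The same test for bacteria, at low Pi with against without SynCom, gave 15 genes with a lower (0.0867% of 17299) and 8 with a higher difference (0.0462%), and 3570 at an unadjusted p under 0.05. PHO2 gave 1.23 (adjusted p = 0.0334): without bacteria its medians were 216 CPM in Col-0 and 389 CPM in phr1 phl1, and with SynCom 123 and 605 CPM. IPS1, OCT1 and AT4G39675 gave -6.31, -5.80 and 2.79 (adjusted p = 0.0127, 0.0127 and 0.0298). OCT1 reached a Col-0 median of 71.8 CPM in this condition, while its medians for Col-0 in the other 3 conditions were at most 1.83 CPM. In this test 51 genes were called without Col-0 D2, added after seeing the data, and 0 without experiment C or D, where 1376 and 1489 had an unadjusted p under 0.05. The DESeq2 count was 757.

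AT3G01345 behaved otherwise. Its Col-0 medians lay between 161 and 198 CPM in all 4 conditions, and its medians in phr1 and phr1 phl1 were at most 0.539 CPM. Neither the Pi nor the bacteria test called it (adjusted p = 0.253 and 0.575).

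**Figure D5:**
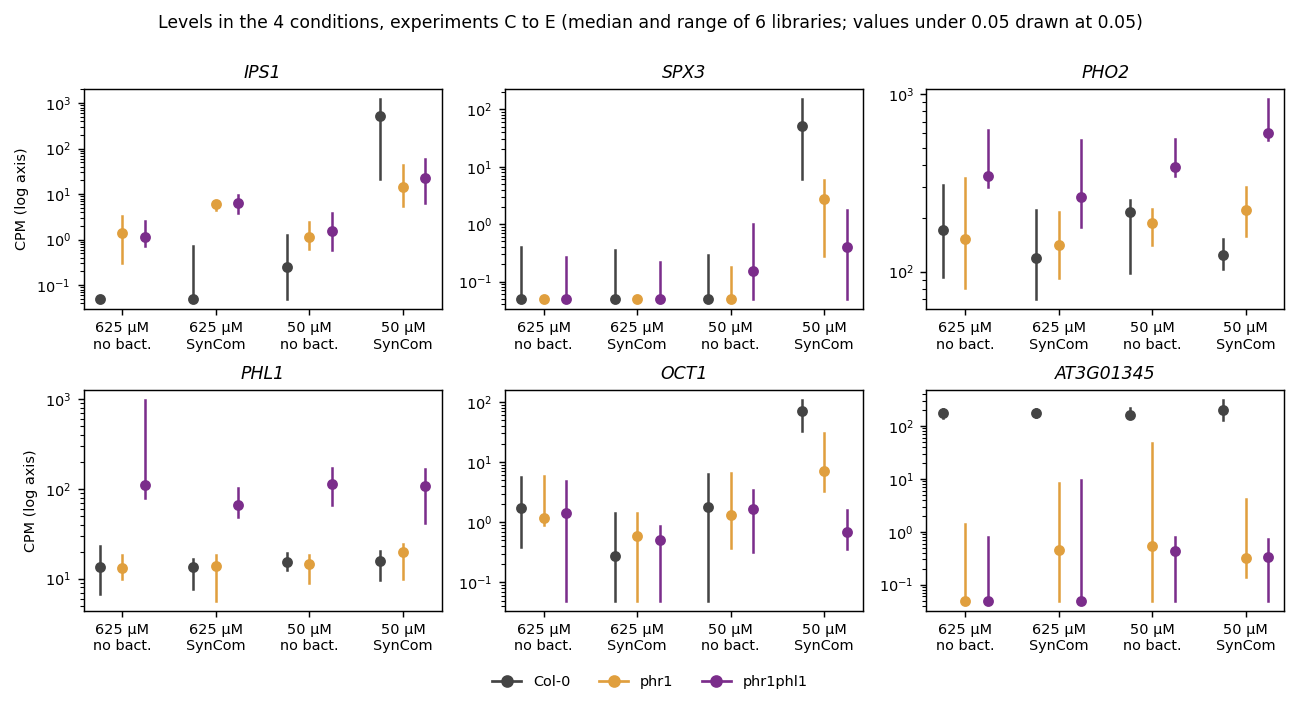
Levels of 6 genes in CPM (log axis) in Col-0, phr1 and phr1 phl1 under the 4 combinations of Pi (50 or 625 µM) and bacteria, experiments C to E. Points are medians and lines the range of 6 libraries. IPS1, SPX3 and OCT1 are high in Col-0 at 50 µM with SynCom, PHO2 and PHL1 are highest in phr1 phl1, and AT3G01345 is high in Col-0 under every condition.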

How the data were processed

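Poly(A) RNA of whole seedlings was sequenced from non-stranded libraries, per the labels. The authors deposited raw read counts per gene locus for 104 libraries, and 0 columns were left unused. The submitters' processing notes name TAIR10 as the build and list HTSeq 0.6.1p1, TopHat2 2.1.1, cutadapt 1.3 and CASAVA 1.8. What each did, and with which settings, is not given in the sources used here. Counting of this kind can lose or misassign reads shared by paralogs or by overlapping genes.

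Counts of the 12 libraries were filtered by edgeR's filterByExpr, which left 16290 of 27206 loci, scaled by TMM and fitted in R 4.3.3 with edgeR 4.0.16 with experiment as a covariate. The quasi-likelihood F test was used with Benjamini-Hochberg adjustment over all genes tested, and every adjusted p comes from it unless another tool is named. Folds are log2 fold changes, with the SE as the absolute fold divided by the root of the F statistic. The comparison with phr1 used 12 libraries and the tests by Pi and by bacteria 24 each, always with experiment as a covariate. The 2 libraries of an experiment were treated as independent. Intervals from depth cover counting error only, and genes with few counts are the least precise. Scripts were tested on simulated data.

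The members and the 20 gene lists, with 336 genes, were chosen with earlier results of these data known. Named genes were PHR1, PHL1, all members of the Pi lists that were tested, the 4 or fewer members of each other list that had the lowest adjusted p, and, at each end, the 6 largest folds among genes called, at 1 CPM or more in the higher group and with 1 sign in every experiment. Outside this rule stand CYP86A1, PAD4, SCR, SHR, ICS1 and FLS2, the members removed by the filter, and AT4G12545, AT4G32870 and PCK2. All of these are to be read as named with their values known. Sequences and names came from RefSeq's TAIR10.1 tables, which held 26719 of the loci. The chromosome coordinates are those of TAIR10.1, and the count table holds none.

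Pairs of libraries of a group and experiment differed by a chi-square of 2.97 to 22.5 per degree of freedom, so none was counted as a duplicate. Deviations of same-numbered libraries from the means of their genotype and experiment correlated at 0.00769, -0.188 and 0.448 in C, D and E. With 2 libraries per genotype and experiment, these values cannot tell whether the number pairs libraries, and the main fit did not use it. Alternatives were DESeq2 1.42.0, limma-voom (limma 3.58.1), other scalings and filters, other blocks, wider fits, thinned counts, and fits without each library or experiment.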

Additional observations from a re-analysis of the deposited data

Results flagged for a closer look

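Among 248 sets of 6 libraries (124 named genes in 2 genotypes), 13 had a highest or lowest library far from the rest on the log2 scale. The gap to the nearest library, as a share of the whole range, was above Dixon's critical value for 6 values in these. Chance alone marks about 1 in 20 such groups, and the share here was 5.24%.

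In Col-0, replicate 2 of experiment D was lowest for LHCB6 (0.726), LHCB3 (0.641) and PAP3 (0.740). LHCB6 was 176 CPM there and 1499 CPM in the next library. In Col-0, replicate 1 of experiment C was lowest for PAP7 (0.646) and PHT1;1 (0.647), at 4.01 and 53.2 CPM, next to 14.5 and 180 CPM.

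In phr1 phl1, replicate 1 of experiment E was lowest for SPX1 (0.690), SQD1 (0.686) and CYCD3;1 (0.644), with SPX1 at 24.9 CPM and 88.7 CPM in the next library. Replicate 2 of experiment E was highest for MGD3 (0.771) and OPT3 (0.639) and lowest for SAG21 (0.660), with MGD3 at 31.4 CPM and 11.8 CPM next. Replicate 2 of experiment D was highest for PR1 (0.650) and PPCK2 (0.646), with PR1 at 2181 CPM and 212 CPM next.

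The difference between phr1 phl1 and Col-0 changed with Pi for IPS1 (-9.86), OCT1 (-6.83), PAH1 (-1.36) and AT4G39675 (3.67), as log2 interaction terms. It changed with bacteria for IPS1 (-6.31), OCT1 (-5.80), PHO2 (1.23) and AT4G39675 (2.79). It differed between experiments for AIR1 and AT4G39675 (adjusted p = 0.0486 and 0.0497). Each is edgeR's interaction test at an adjusted p under 0.05, and their other values stand beside the results above.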

How the results depend on the processing

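The counts of called genes depended on the fit. Single-gene values were compared by sign and by side of the threshold, and the size of their folds was not compared. Of 3566 single-gene values under alternatives, 2935 kept their side of the threshold, and 482 lost and 147 gained a call with the same sign. The other 2 turned sign with a call in 1 of the fits compared. They were MGD3 in experiment E alone (0.028) and SQD1, not called in the main fit, in the fit of all libraries (-0.47). Changes of sign in genes called in neither fit were not counted, such as PPCK1 at -1.08 and, in experiment E alone, 0.48. List medians were set against the SD of the same list's medians in experiments C, D and E alone, which is wide where experiments differ. Of 609 list medians 558 moved by less than 1 such SD and 51 did not. The cause of these shifts was not tested.

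For phr1 phl1 against Col-0 (995 genes), DESeq2 called 2209, a fit with no filter 1743, and no experiment term 163. Without experiments C, D and E the counts were 16, 34 and 2842, and in C, D and E alone 659, 123 and 2. Fits of the 72 libraries of C to E and of all libraries called 4812 and 6820. Fits that left out 1 library called 153 to 2001. DESeq2 held all 995 genes. Upper-quartile scaling called 290 higher and 606 lower genes, 32.4% higher, against 43.5% under TMM.

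Against phr1 (52 genes), the same order of fits (DESeq2, no filter, no experiment term) gave 289, 302 and 12. It gave 21, 8 and 400 without C, D and E, and 658 and 498 in these wider fits. By Pi (8 genes), the order gave 320, 67 and 4, then 0, 0 and 1336 without C, D and E, then 838 and 3083. By bacteria (23 genes), it gave 757, 96 and 6, then 0, 0 and 2782, then 1202 and 2935, with limma-voom at 12 and 51 without Col-0 D2, a fit added after seeing the data. The 0 counts of edgeR stood beside 1043 and 1178 genes by Pi and 1376 and 1489 by bacteria at an unadjusted p under 0.05. By experiment (5 genes), RLE scaling and leaving out Col-0 D2 each gave 0, with 2402 and 2216 at an unadjusted p under 0.05, no filter gave 252 and DESeq2 242. The Pi-raised set of A and B (1841 genes) was 1039 in B alone.

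With a replicate block of experiment and number, 166 genes were called against Col-0, 89 against phr1, 9 by Pi and 7 by bacteria. Whether the replicate numbers pair libraries is not known, so calls lost or gained in this block have no settled reading. The filter on low counts removed 18 of 74 Pi genes, of which 9 were lower in the fit with no filter.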

Other observations

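Several smaller lists were also read in the same fit at low Pi with SynCom, in which 3.45% of all genes were lower and 2.66% higher. Of 8 sulphur deficiency genes tested, 1 fell, the sulphate transporter family gene SULTR3;4, which was 3.14, 20.2 and 36.0 CPM in Col-0 (lowest, median and highest) and 2.39, 3.0 and 4.61 CPM in phr1 phl1. The groups overlapped and it fell by 2.19 ± 0.43 (adjusted p = 0.0199), a call lost without phr1 phl1 C1, C2, D1 or D2 or without experiment C or D. In Col-0 with SynCom of experiments A and B, SULTR3;4 was 4.52 higher at low than at high Pi. So were APR1, LSU2 and SHM7 of the same list, by 3.36, 3.95 and 0.51. All 8 had negative log2 fold changes, with a median of -0.71 that was -1.48 in C and in D and 0.10 in E. Of 16 nitrate genes, the glutamine synthetase gene GLN1;4 fell by 1.83 ± 0.31 (adjusted p = 0.0101), without overlap, and the nitrate reductase gene NIA1 and the ammonium transporter gene AMT1;1 rose by 1.03 and 0.88 (adjusted p = 0.0205 and 0.0495). GLN1;4 kept its call in all 12 fits that left out 1 library and AMT1;1 in 2. NIA1 lost it without Col-0 D1 or phr1 phl1 C1 or D1. None of these 3 genes was called without experiment C or D.

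Of 10 senescence genes, SAG13 rose by 2.60 ± 0.55 (adjusted p = 0.0236), from 0.554, 4.84 and 11.9 CPM in Col-0 to 9.66, 34.1 and 70.9 CPM in phr1 phl1, with overlap. The call was lost without Col-0 D1 or phr1 phl1 C1, C2 or D2, and without experiment C or D. Of 14 camalexin and indole glucosinolate genes, CYP82C2 rose by 2.08 ± 0.53 (adjusted p = 0.0416), a call lost without any one of the 8 libraries of C and D, Col-0 D2 among them. Anthocyanin synthesis, often raised by Pi starvation, gave 0 calls of 5 tested of 16 listed in edgeR. The filter removed the other 11, and a fit without it also gave 0 calls of 16. The cell cycle list gave 0 calls of 13 in edgeR, with a median of -0.51 that was -1.05 in D and 0.24 in E.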
